A study of Mus musculus with 10 samples.

Results

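Bcl11a and Bcl11b, which are 2 of the 31053 genes in the deposited matrices, were followed in every embryo and in every class of cells that could be named from markers. They were found in the matrices by symbol. Bcl11a (ENSMUSG00000000861) lies on the plus strand of chromosome 11 at chr11:24078056-24174123, and Bcl11b (ENSMUSG00000048251) on the minus strand of chromosome 12 at chr12:107910403-108003602, both in GRCm38 with GENCODE vM21. Mouse cortex at E16.5 was dissected, dissociated with papain and profiled by single-cell RNA sequencing (10X Genomics 3′ version 3), each embryo in its own library. WT embryos were Gatad2b+/+ (n = 3), Het embryos carried 1 mutant allele, Gatad2b stop/+ (n = 4), and KO embryos carried the allele on both chromosomes, Gatad2b stop/stop (n = 3). All groups had the background C57BL/6N-A tm1Brd, and the sex of the embryos was not stated in the sources used here. The stop allele is a trapping cassette in an intron between the first coding exons, and it is carried by every cell of the embryo. Because no exon is deleted, some normal transcript may still be made. The paper found Gatad2b protein undetectable in KO cerebellum by western blot and absent from KO cortex at E16.5 by immunostaining. KO mice die around birth. Libraries also carried 1 of 2 prefixes in their labels, whose meaning is not stated: one was shared by the 3 WT embryos and Het 4, and the other by Het 1 to 3 and the 3 KO embryos. KO and WT embryos share no prefix, so genotype and prefix cannot be told apart in that comparison. Of the Het embryos only Het 4 shares the prefix of WT, so Het vs WT is largely confounded with prefix too.

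Gatad2b encodes a scaffold subunit of NuRD, a complex that combines nucleosome remodeling with histone deacetylation and is brought to genes by DNA-binding proteins. Bcl11a and Bcl11b, also named Ctip1 and Ctip2, are paralogous C2H2 zinc-finger transcription factors whose short N-terminal motif binds NuRD, and both also copurify with the BAF remodeling complex. In the developing forebrain Bcl11b is known as a determinant of the corticospinal neurons of layer V and of the projection neurons of the striatum, while Bcl11a is found more widely in cortical neurons and is known for its part in their migration and in the choice between projection types.

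Part of each gene's RefSeq promoter window is shown, the upstream part that no GENCODE exon overlaps. CpG dinucleotides, the sites of DNA methylation in mammals, are in capitals. The Bcl11a stretch is chr11:24080445-24080669 of GRCm38.p6 on the plus strand, and the Bcl11b stretch is chr12:108003603-108003664 on the minus strand. The Bcl11a stretch lies inside the annotated gene, between the first exon of its longer transcripts and the start of a shorter one, and reaches almost to the RefSeq start. The Bcl11b stretch lies outside the annotated gene, at the upstream end of its window. The stretches thus lie at different distances from the start, and the genes are compared over the full windows only.
Bcl11a: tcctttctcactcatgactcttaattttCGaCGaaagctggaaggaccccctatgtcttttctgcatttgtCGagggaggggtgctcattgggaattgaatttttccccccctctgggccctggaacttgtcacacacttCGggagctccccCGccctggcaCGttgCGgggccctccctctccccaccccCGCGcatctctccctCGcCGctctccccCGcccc
Bcl11b: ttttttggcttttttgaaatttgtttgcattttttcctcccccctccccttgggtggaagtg
Over the full RefSeq window, from 250 bases before the start to 50 after it, Bcl11a held 23 CpG at 63% GC, and 78.5% of the 32851 RefSeq promoters held fewer. Bcl11b held 9 CpG at 43% GC, and 54.2% of promoters held fewer. The median promoter held 7 CpG at 52.7% GC. The letters TATAAA, searched on both strands, occurred in the Bcl11b window and not in that of Bcl11a, and 13.6% of all windows held them.

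From 5147 to 8103 cells were kept per embryo, with 82872641 to 123737385 UMIs in total and a median of 10795 to 17077.5 UMIs per cell. Any pair of libraries shared 4 to 19 barcodes, at most 0.325% of the smaller library. Classes were named from 142 markers, with both genes and Gatad2b left out of the genes used for clustering, and neither gene was a marker of any class. Markers of striatal inhibitory neurons and of the ganglionic eminence defined 10.0% and 4.14% of the cells, although the labelled tissue is cortex. The ganglionic eminence-like cluster was led by genes of replicating cells, with none of its own markers among its top 10. Gatad2b itself was at 134 ± 4.35 CPM (UMI counts scaled to the library size, with TMM normalization; SD, n = 3) over all cells in WT. It ranged from 89.8 to 95.7 CPM in Het and from 50.9 to 57.3 CPM in KO, so the genotypes did not overlap and stood in the order of their labels. How much of the KO counts is normal transcript was not tested.

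Both genes were highest in neuronal classes, but in a different order. In WT, where levels are given here as CPM without TMM normalization, Bcl11b was highest in striatal inhibitory-like cells at 1671 ± 69.6 (SD, n = 3). Layer V-VI-like cells followed at 815, interneuron-like cells at 431 and ganglionic eminence-like cells at 268. Each of these steps, and the step from the ganglionic eminence to the next class, went the same way in 10 of 10 embryos (two-sided exact sign-flip test, adjusted p = 0.00488 over 20 neighbours). Below them, subventricular zone-like cells (104), layer II-IV-like cells (95.1), layer I-like cells (81.8) and radial glia-like cells (55.7) lay close together, and the ranges of WT embryos overlapped between neighbours. Over the 10 embryos of all genotypes together, layer II-IV-like cells exceeded layer I-like cells in 9, and these radial glia-like cells in 9 (adjusted p = 0.00781 each, exact sign-flip test). Subventricular zone-like cells exceeded layer II-IV-like cells in only 2 of the 10 (log2 difference -0.46, adjusted p = 0.0391), against the order in WT. These tests include the KO embryos, in which Bcl11b was higher in layer II-IV-like cells. The microglia-like class, with at most 44 cells in an embryo, ranged from 24.7 to 194 and had no firm place in this order. Erythroid-like cells were at 38.5.

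For Bcl11a the striatal inhibitory-like class, at 843 CPM in WT, stood beside layer II-IV-like cells at 808. The WT ranges of these classes overlapped, and the striatal inhibitory-like class was higher in 9 of 10 embryos (exact sign-flip test, adjusted p = 0.0107). Layer I-like cells stood at 568 and layer V-VI-like cells at 535, and their WT ranges overlapped. Over the 10 embryos of all genotypes together, layer I-like cells were higher in 4 (exact sign-flip test, adjusted p = 0.232). This test includes the KO embryos, in which layer V-VI-like cells were higher, at 924 to 977 CPM against 653 to 792 in layer I-like cells. It therefore does not show that these classes are alike in WT. The interneuron-like class at 421 and the subventricular zone-like class at 406 also overlapped in WT. Over all genotypes the interneuron-like class was higher in 4 of 10 embryos (exact sign-flip test, adjusted p = 0.0712). That test too includes the KO embryos, in which Bcl11a was higher in the subventricular zone-like class. Ganglionic eminence-like cells were lower at 310 and radial glia-like cells lower again at 139, each step seen in 10 of 10 embryos (adjusted p = 0.00488). Erythroid-like cells were at 41.4, which is no floor for this gene, since Bcl11a is known to act in erythroid cells as a repressor of globin genes. Bcl11a was thus close to its highest level in the upper-layer-like class, in which Bcl11b ranked among the lowest neuronal classes of WT.

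**Figure D1:**
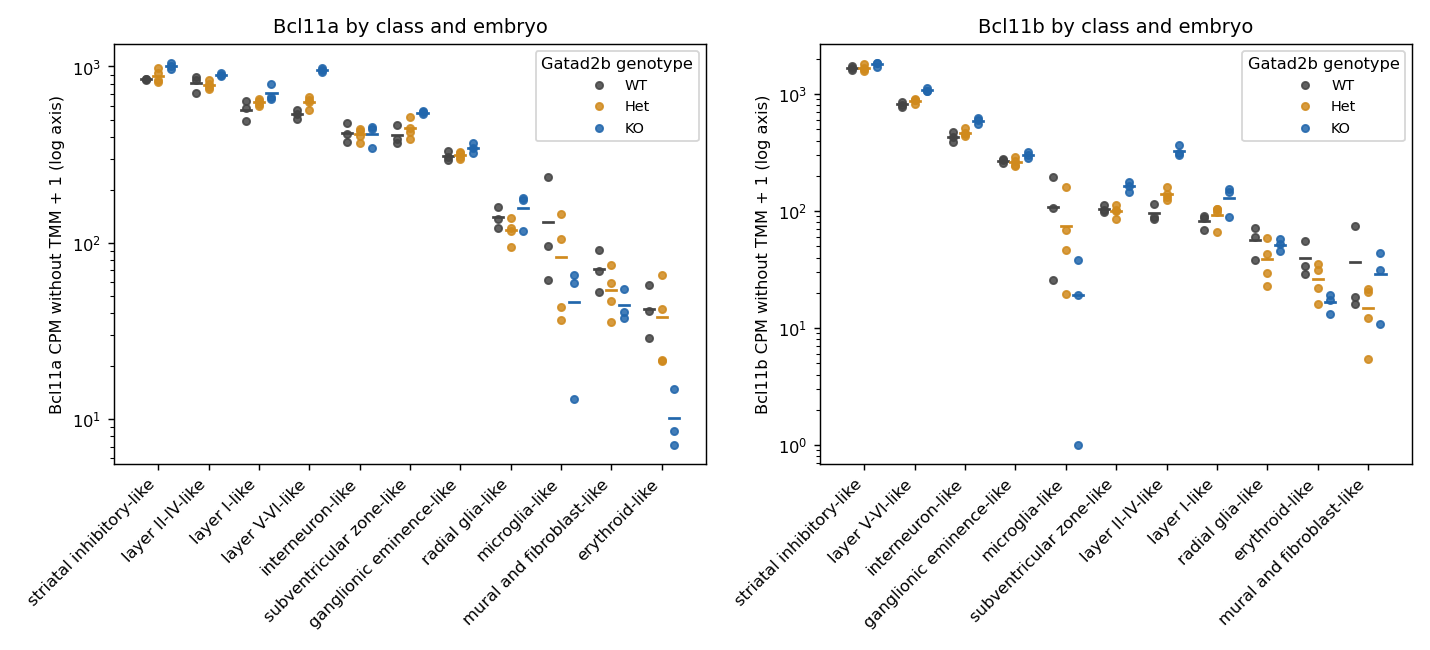
Level of Bcl11a and Bcl11b in each class, as CPM without TMM normalization plus 1 on a log axis, with classes ordered by the WT mean of each gene; points are embryos, colored by genotype, and short lines are genotype means; an embryo without a UMI is drawn at 1. Bcl11b falls from 1671 in striatal inhibitory-like cells of WT to 35.5 in mural and fibroblast-like cells, and its KO points stand clear of the others in layer II-IV-like cells.

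Across the 23 clusters, the genes whose mean level followed that of Bcl11a most closely among 6770 genes were Chd3, a NuRD remodeling ATPase (Pearson r = 0.94), Tmem151b (0.92), Soga3 (0.92), Ss18l1, a neuronal BAF subunit (0.92), and Brsk1, a kinase of neuronal polarity (0.91). For Bcl11b they were Syt6, a synaptotagmin (0.81), Lmo3, a LIM-only cofactor (0.80), Celf4, a neuronal RNA-binding protein (0.77), Fam110b (0.76) and Drp2 (0.76). The 2 genes correlated with each other at 0.60. These values are descriptions over clusters that share embryos and libraries.

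Over all cells, Bcl11b measured 373, 376 and 367 CPM in WT, 399, 410.3, 435 and 439.6 in Het and 542, 556 and 553 in KO. The 3 genotypes did not overlap. Bcl11b rose in KO vs WT by a log2 fold change of 0.57 ± 0.04 (SE; adjusted p = 1.09e-05) and in KO vs Het by 0.39 (adjusted p = 0.000349). A gene was called when its adjusted p was under 0.05 and its absolute log2 fold change above 0.25, and 24.5% of 17647 genes met this in KO vs WT, 5.5% in KO vs Het and 2.98% in Het vs WT. The 525 genes called in Het vs WT depended on every library, from 74 without WT 1 to 1829 without Het 4, and the 970 in KO vs Het were 528 without KO 2 and 593 without KO 3. The Het difference of 0.18 had an adjusted p of 0.0433 but was below the fold limit. Bcl11a measured 647, 539 and 617 CPM in WT, 659, 596, 635 and 587 in Het, and 743, 746 and 733 in KO. WT and Het embryos overlapped, and KO embryos were above both, by 0.30 ± 0.07 over WT (adjusted p = 0.00515) and 0.26 over Het (adjusted p = 0.0266). Without WT 2 the KO vs WT difference of Bcl11a was 0.22, below the fold limit, and with the library prefix as a covariate it was 0.20 (adjusted p = 0.292). In every fit with this covariate the prefix effect was estimated from Het 4 against Het 1 to 3 alone. In sums over a tissue, more cells that hold a transcript and more transcript per cell cannot be told apart, so the classes were taken next. Shares of cells at a matched depth separate these only in part, since a higher level per cell also raises the share.

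Within classes both genes rose in KO in 3 of the same classes, but by different amounts. The change of Bcl11b was largest in layer II-IV-like cells and that of Bcl11a in layer V-VI-like cells, and both were intermediate in Het embryos. In the 8 neuronal and progenitor-like classes, Bcl11b passed the call in KO vs WT in 5 and Bcl11a in 4, all of them increases. Over all genes, 5.47% to 29.6% were called in these classes. Some of the calls did not hold under the alternatives given below. Both calls in layer I-like cells were lost without KO 3. With the prefix as a covariate, those of Bcl11b in interneuron-like and Bcl11a in striatal inhibitory-like cells were lost.

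**Figure D2:**
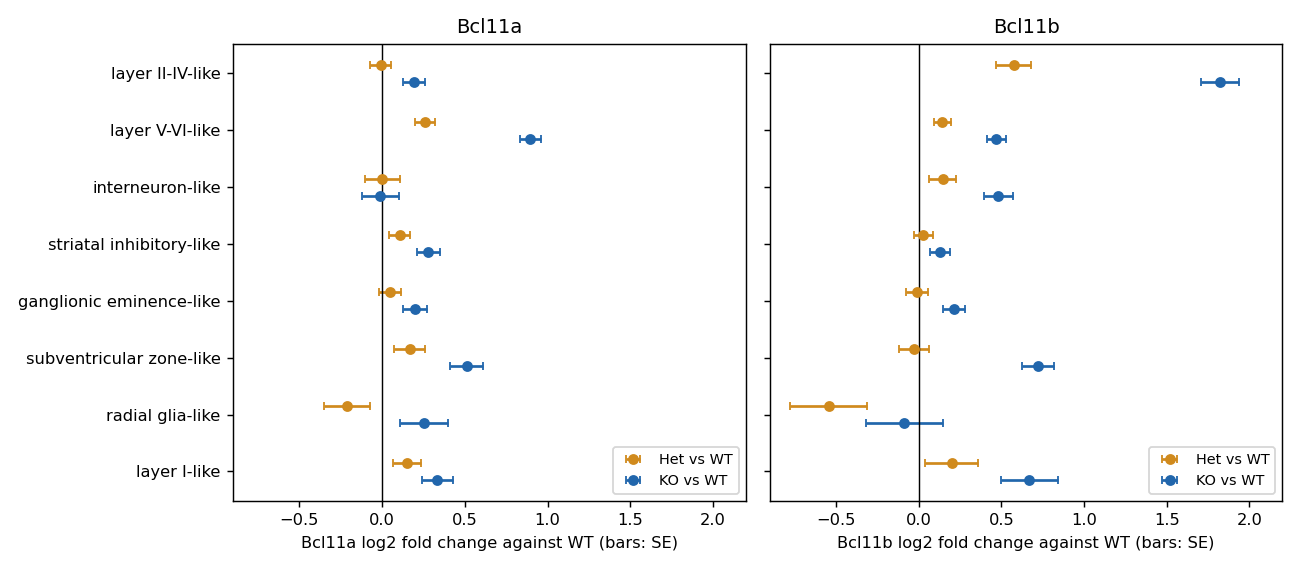
log2 fold change of each gene from WT to Het and to KO for 8 classes; bars are standard errors of the edgeR fit and the vertical line marks no change. Bcl11b in layer II-IV-like cells reaches 1.82 in KO, and Bcl11a in layer V-VI-like cells reaches 0.90.

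In layer II-IV-like cells (19311 cells, 1466 to 2720 per embryo), which would settle in the upper layers where Bcl11b is normally low, Bcl11b measured 86.4, 112 and 81.9 CPM in WT. It measured 132, 141, 123 and 160.4 CPM in Het. In KO it measured 311, 317 and 366 CPM, from 2890 to 12191 UMIs per embryo over all genotypes. The 3 groups stood in 3 separate ranges, ordered by the number of mutant alleles. KO exceeded WT by a log2 fold change of 1.82 ± 0.11 (SE; adjusted p = 5.06e-08), Het exceeded WT by 0.57 ± 0.11 (adjusted p = 0.00686) and KO exceeded Het by 1.25 ± 0.10 (adjusted p = 2.52e-06). Of 14500 genes tested in this class, 29.6% were called in KO vs WT, 11.3% in KO vs Het and 5.78% in Het vs WT. In Het vs WT the 838 calls became 1603 without Het 4, 400 without Het 1 and 489, 520 and 311 without WT 1, WT 2 and WT 3. Within libraries of 1 prefix, KO exceeded Het 1 to 3 by 1.32 (adjusted p = 8.36e-08). In the other prefix Het 4, the only Het embryo there, exceeded the WT embryos by 0.78, which is an effect size without a test.

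Bcl11a in the same cells measured 824, 700.0 and 856 CPM in WT, 841.5, 770.4, 798 and 745 in Het, and 914.5, 894 and 913 in KO. Every KO embryo was above every other, by a log2 fold change of 0.19 ± 0.07 over WT (adjusted p = 0.0304), which was below the fold limit. The difference between Het and WT was -0.01 (adjusted p = 0.950).

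The share of cells that held Bcl11b rose with its level. With each cell taken at 5000 UMIs, at least 1 Bcl11b UMI was expected in 26.0%, 26.9% and 25.3% of layer II-IV-like cells in WT. In Het the shares were 35.5%, 33.5%, 32.1% and 40.0%, and in KO 61.9%, 63.3% and 69.5%. The groups did not overlap, and the exact permutation test over the 3 genotypes gave p = 0.000476, the smallest it can give (adjusted p = 0.00952 over 40 tests). Het and WT differed, as did KO and Het, by the exact permutation test of 3 against 4 embryos (p = 0.0286 each, the smallest it can give), and KO exceeded Het 1 to 3 of the same prefix by 31.2 percentage points. At least 4 UMIs were expected in 3.60%, 5.98% and 15.9% of cells in WT, Het and KO. Among cells with Bcl11b the mean was 2.05 ± 0.337, 2.25 ± 0.199 and 2.64 ± 0.126 UMIs (SD, n = 3, 4 and 3), which did not pass after adjustment (adjusted p = 0.106, exact permutation test).

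Bcl11a was found in 88.1%, 86.9% and 89.5% of these cells, with 4.68, 4.55 and 4.80 UMIs per positive cell, and neither passed the test (p = 0.234 and 0.451, exact permutation test). At all UMIs the shares with Bcl11b were 44.5%, 55.2% and 87.9%. Cells under 5000 UMIs, which were left out, were 114 of 7012 in WT, 59 of 7283 in Het and 33 of 5016 in KO. In erythroid-like cells, taken as background for Bcl11b, it was expected in 11.5%, 6.40% and 6.24% of cells at the same depth. Bcl11a was expected in 9.10%, 8.40% and 3.33% of them, which may include its own expression there and is not read as background. Before the depth was matched, the median of an embryo was 6179.5 to 11800 UMIs in erythroid-like cells and 14352 to 19819 in layer II-IV-like cells.

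**Figure D3:**
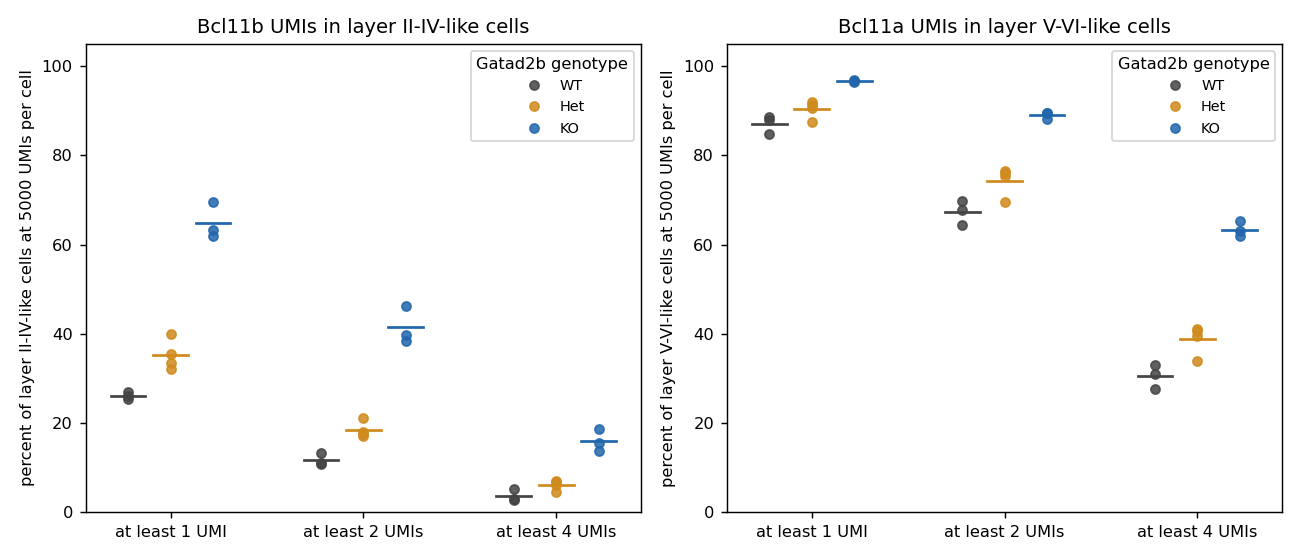
Percent of cells expected to hold at least 1, 2 or 4 UMIs of Bcl11b in layer II-IV-like cells and of Bcl11a in layer V-VI-like cells, with every cell at 5000 UMIs; points are embryos and lines are genotype means. For Bcl11b the share with at least 1 UMI runs from 26.1% in WT to 64.9% in KO, and for Bcl11a the share with at least 4 UMIs runs from 30.5% to 63.4%.

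Layer II-IV-like cells fell into 3 clusters, and Bcl11b rose in each. Cluster 0, led by Cdh12, Hs6st2 and Dok5, measured 63.4, 63.3 and 51.5 CPM in WT, 77.8, 81.1, 69.7 and 113 in Het and 271, 263.5 and 341 in KO, without overlap. Its log2 fold change in KO vs WT was 2.29 ± 0.15 (adjusted p = 1.94e-08), where 28.1% of genes were called. Cluster 1, led by Unc5d, Pdzrn3, Sema3c and Nrp1, genes of migrating upper-layer neurons, began higher, at 165, 292 and 167 CPM in WT, and reached 407, 431.5 and 438 in KO (1.04 ± 0.16, adjusted p = 0.000140, beside 25% called). Cluster 11, led by Inhba and Nr4a2, began lowest, at 34.4, 46.5 and 43.3 CPM, and reached 163, 125 and 199 in KO (1.98 ± 0.19, adjusted p = 2.87e-07, beside 17.2% called). At 5000 UMIs the share of cells with Bcl11b went from 17.0% to 57.4% in cluster 0, and from 45.9% to 76.1% in cluster 1. In cluster 11 it was at most 12.1% in a WT embryo and at least 30.5% in a KO embryo. The makeup of the class moved too: cluster 1 made up 30.6% to 36.8% of it among WT embryos, 36.4% to 43.3% among Het embryos and 47.0% to 52.2% among KO embryos, and the fits within clusters do not carry that shift between clusters.

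At a finer resolution of 0.8 these upper-layer-like clusters, apart from cluster 11, separated for the most part into 5 groups, and Bcl11b rose in all 5. The log2 fold change was 0.70 ± 0.11 (adjusted p = 0.000104) in the group led by Unc5d, Sstr2 and Sema3c, where the WT level was already 253 to 359 CPM. It was 2.01 ± 0.07 (adjusted p = 4.23e-16) in the group led by Pdzrn3, Nrp1 and Pou3f2, where Het also exceeded WT, by 0.87 (adjusted p = 1.79e-08). In the other 3 it was 1.96 ± 0.11, 2.51 ± 0.21 and 2.31 ± 0.12. Genes called in KO vs WT in these 5 groups were 18%, 23.5%, 23.4%, 25.8% and 20.8% in the same order. Bcl11a passed the call in only the last of them, led by Ntf3, Nrip1 and Cbln2, with 509, 405 and 545 CPM in WT, 534, 464, 480 and 528 in Het and 836.5, 753 and 905 in KO. WT and Het overlapped there and KO stood apart, by 0.78 ± 0.09 (adjusted p = 5.07e-06). In the group led by Cdh12, Fn1 and Hs6st2, Bcl11a differed by -0.19 ± 0.06 in KO vs WT (adjusted p = 0.0166, below the fold limit). These groups were singled out after their values were seen.

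Markers of other classes were read in the same sums, beside the 29.6% of all genes called in KO vs WT. Among the sums of layer II-IV-like cells, 7 of 14 layer V-VI markers rose and 3 fell in KO vs WT, and their summed level was 461 to 551 CPM in WT, between 558 and 603 in Het, and between 686 and 772 in KO. Those that changed were Fezf2, Hs3st4, Ldb2, Nr4a2, Nxph3, Pcp4, Rprm, Sla, Tbr1 and Zfpm2. Of 8 subventricular zone markers 6 rose, and their sum was at 238 to 264 CPM in WT, between 318 and 367 in Het and between 435 and 475 in KO. Of 11 striatal markers tested, 1 rose and 6 fell, and of 17 interneuron markers 2 rose and 10 fell. The summed striatal markers ranged from 31.6 to 39.4 CPM in WT and from 30.7 to 37.0 in KO, and the summed interneuron markers from 160 to 213 and from 110 to 155. Of 5 layer I markers tested 1 rose and 2 fell, and their sum, at 17.7 to 22.0 CPM in WT and 30.8 to 39.0 in KO, did not overlap between these groups. Of 12 radial glia markers 4 rose and 2 fell, with overlapping sums of 666 to 766 and 723 to 759 CPM. No marker of these lists was at 0 in every embryo, and their part in the rise of Bcl11b was not tested.

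In layer V-VI-like cells (6312 cells, 476 to 881 per embryo), Bcl11a measured 550.3, 497.5 and 525 CPM in WT. It measured 651, 566, 668 and 628 CPM in Het and 1000.5, 942 and 983 CPM in KO. No group overlapped with another, and every KO embryo held more than every Het embryo by a wide margin. The log2 fold change was 0.90 ± 0.06 (SE; adjusted p = 1.37e-08) in KO vs WT, 0.63 ± 0.06 (adjusted p = 7.36e-07) in KO vs Het and 0.26 ± 0.06 (adjusted p = 0.0262) in Het vs WT. Of 13012 genes, 26% were called in KO vs WT, 11.7% in KO vs Het and 2.62% in Het vs WT. In Het vs WT the 341 calls became 960 without Het 4, 140 without Het 1, 223 without Het 3 and 192, 156 and 90 without WT 1, WT 2 and WT 3. Within 1 prefix, KO exceeded Het 1 to 3 by 0.64. The small Het difference was no longer called without Het 1, Het 3, WT 2 or WT 3, nor at resolution 0.8, where it was 0.22 (adjusted p = 0.0983).

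Here the UMIs per positive cell rose as well as the share. With a WT share of 87.0% the share had less room to rise than that of Bcl11b in layer II-IV-like cells. The contrast between them therefore does not show a different kind of change. At 5000 UMIs, Bcl11a was found in 87.0% ± 2.06 of layer V-VI-like cells in WT, 90.4% ± 2.02 in Het and 96.7% ± 0.219 in KO (SD; exact permutation test, p = 0.00190, adjusted p = 0.00952). Positive cells held 3.12, 3.52 and 4.94 UMIs (p = 0.000952, adjusted p = 0.00952, exact permutation test). At least 4 UMIs were expected in 30.5%, 38.8% and 63.4% of cells. At all UMIs, 98.3%, 98.8% and 99.8% of the cells had it, and 80 of 1972, 26 of 2571 and 7 of 1769 cells were below the depth.

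Bcl11b, already high in this class in WT, also rose. It measured 836.5, 766 and 790.5 CPM in WT, 900.2, 830.0, 897 and 895 in Het and 1106, 1079.8 and 1131 in KO. Only Het 2 lay within the WT range, and KO stood above all others. The log2 fold change was 0.47 ± 0.06 (adjusted p = 5.26e-06) in KO vs WT, 0.33 (adjusted p = 0.000208) in KO vs Het and 0.14 (adjusted p = 0.134) in Het vs WT. Positive cells held 4.39, 4.72 and 5.63 UMIs (p = 0.00190, exact permutation test).

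The finer clustering split the layer V-VI-like class into groups that are described here by their leading genes. In the group led by Fezf2, Ldb2 and Sla, genes of layer V, Bcl11a measured 495, 419 and 451 CPM in WT, 605.5, 487, 607 and 585 in Het and 1006, 950.4 and 975 in KO. WT and Het overlapped only at Het 2, and KO stood apart. On the log2 scale Bcl11a rose there by 1.10 ± 0.08 (adjusted p = 1.06e-08, beside 23.1% of genes called) in KO and by 0.33 in Het (adjusted p = 0.0292), whereas Bcl11b rose by 0.31 ± 0.06 (adjusted p = 0.00120). In the group led by Hs3st4 and Tle4, genes of layer VI corticothalamic neurons, the folds were 0.73 ± 0.07 for Bcl11a (adjusted p = 1.31e-07) and 0.77 ± 0.07 for Bcl11b (adjusted p = 4.57e-08), beside 21.6% called. In the third group, led by Nr4a2 and Nts and only in part within this class, Bcl11a rose by 0.72 ± 0.07 (adjusted p = 4.17e-07, beside 14.4% called), and Bcl11b differed by 0.20 (adjusted p = 0.0446, below the fold limit).

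Beside these values, 5 of 10 radial glia markers tested rose in layer V-VI-like cells, with summed levels of 531 to 600 CPM in WT and 769 to 869 in KO. Of 13 layer II-IV markers 1 rose and 9 fell, from 763 to 823 CPM in WT to 592 to 673 in KO. Of 17 interneuron markers 7 fell, from 345 to 381 CPM to 165 to 245. Over all genes of the class 26% were called in KO vs WT. The part of these markers in the rise of Bcl11a was not tested.

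Interneuron-like cells (10888 cells, 4 clusters) express both genes. Bcl11b measured 479, 381 and 417 CPM in WT, 519.9, 462, 463 and 436 in Het and 569, 627 and 587 in KO. WT and Het overlapped and KO was above them. The log2 fold change in KO vs WT was 0.48 ± 0.09 (adjusted p = 0.00739, beside 8.71% of 13025 genes called), and with the prefix as a covariate 0.34 (adjusted p = 0.648). In KO vs Het it was 0.34 (adjusted p = 0.115, beside 0.583% called) and in Het vs WT 0.15 (adjusted p = 0.466). The percentage called in Het vs WT was 0 by edgeR, with 1776 genes at an unadjusted p under 0.05 and 62 called by DESeq2, and edgeR called 336 without Het 4. The 1135 genes called in KO vs WT were 586, 317 and 602 without KO 1, KO 2 and KO 3 and 353 without WT 3, and the 76 in KO vs Het ranged from 14 without KO 2 to 91 without WT 1. At 5000 UMIs, Bcl11b-positive cells held 2.94, 3.05 and 3.57 UMIs (p = 0.00143, adjusted p = 0.00952, exact permutation test), and the share with Bcl11b was 76.8%, 78.9% and 85.9% (adjusted p = 0.0542). The depth left out 1276 of 3903 cells in WT, 863 of 4323 in Het and 490 of 2662 in KO, and at all UMIs the shares were 78.2%, 83.7% and 89.2%.

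Bcl11a, in contrast, measured 481, 364 and 403 CPM in WT, 453, 376, 432 and 403 in Het and 351, 442 and 445 in KO. The groups overlapped fully, with a log2 fold change of -0.01 ± 0.11 in KO vs WT (adjusted p = 0.966). This class total was made of clusters that differed in direction. Their shares also moved. Cluster 12, where Bcl11a averaged 581 CPM in WT, made up between 15.0% and 17.4% of the class in WT embryos. It made up between 9.49% and 13.2% in KO embryos, while Het embryos ranged from 14.9% to 18.2%. The part of this shift in the class values of either gene was not tested. At the finer resolution, Bcl11a fell in the group led by Maf, Lhx6 and Nxph1, genes of interneurons from the medial ganglionic eminence, with 376, 345 and 349.7 CPM in WT, 353, 312, 359 and 305 in Het and 246, 247 and 285 in KO. KO lay below every other embryo, by -0.46 ± 0.08 (adjusted p = 0.000220, beside 9.55% of genes called), while Bcl11b rose by 0.42 ± 0.08 in the same cells (adjusted p = 0.000231). This group was picked out after its values were seen.

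In cluster 10, led by Adarb2, Htr3a and Prox1, genes of interneurons from the caudal ganglionic eminence, both genes rose on the log2 scale, Bcl11a by 0.31 ± 0.09 (adjusted p = 0.0432) and Bcl11b by 0.59 ± 0.10 (adjusted p = 0.000650), beside 6.46% of genes called. Bcl11b also rose in cluster 3 by 0.41 ± 0.07 (adjusted p = 0.000620, beside 16% called) and in cluster 12 by 0.34 ± 0.08 (adjusted p = 0.0198, beside 5.54% called). In these 2 clusters Bcl11a had negative differences of -0.19 (adjusted p = 0.0952) and -0.23 (adjusted p = 0.297). In cluster 16, led by Sst and Npy, neither was called, with 0.54 ± 0.24 for Bcl11b (adjusted p = 0.424) and 0.49 for Bcl11a (adjusted p = 0.393), beside 0.125% called. The summed striatal markers in interneuron-like cells were at 166 to 226 CPM in WT and 176 to 181 in KO. Of 14 layer V-VI markers 3 fell, and their sum was 418 to 569 CPM in WT and 320 to 466 in KO. Of 7 ganglionic eminence markers tested 4 rose (Dll1, Dlx2, Gsx2 and Hes6), with sums of 346 to 398 CPM in WT and 479 to 502 in KO, which did not overlap. Of 13 layer II-IV markers 6 fell, at 747 to 1027 CPM in WT and 757 to 777 in KO. Beside these counts, 8.71% of all genes were called, and the part of these markers in the rise of Bcl11b was not tested.

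**Figure D4:**
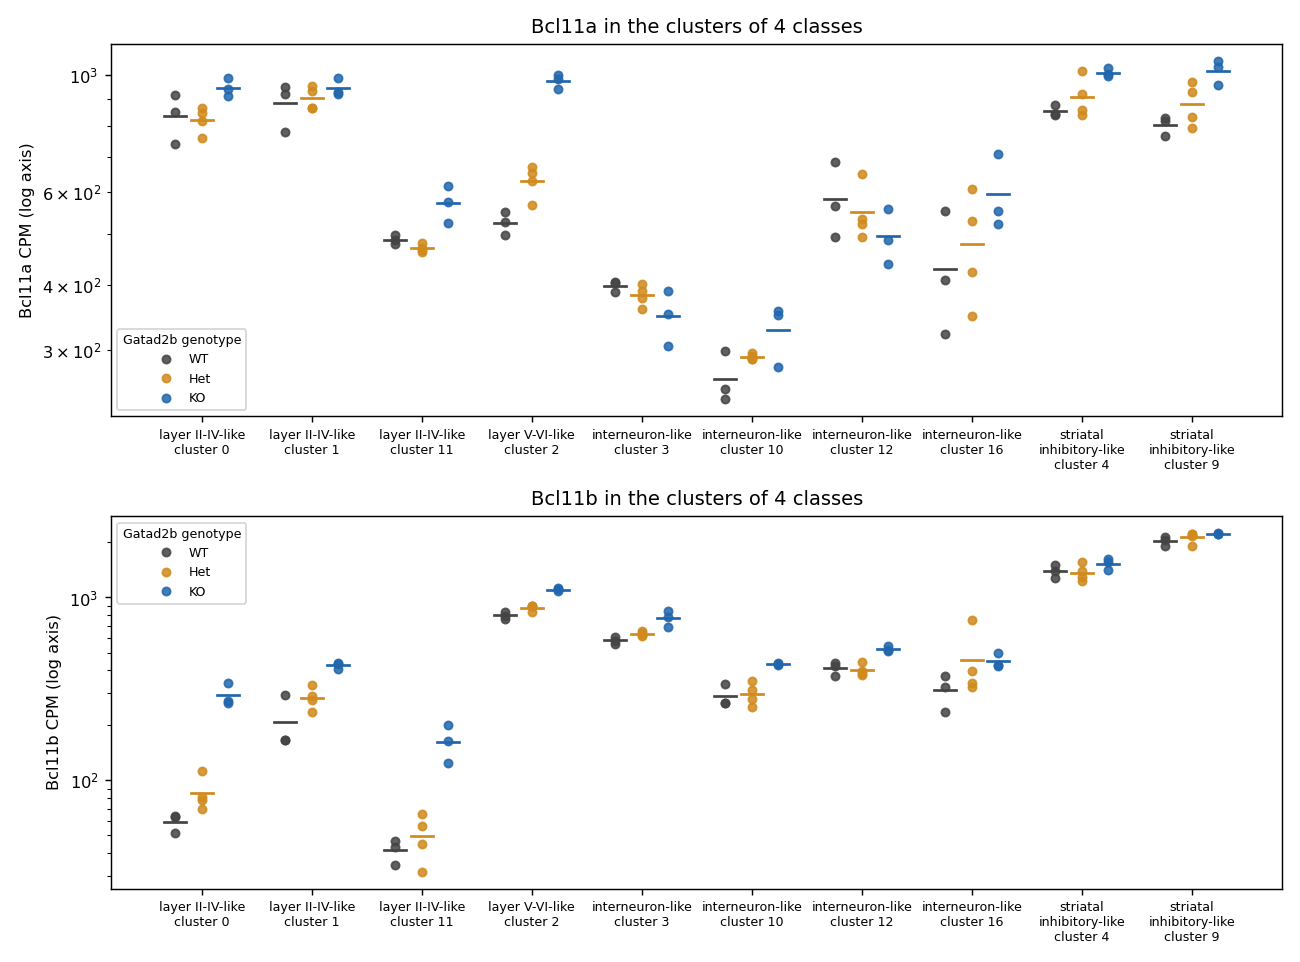
CPM of Bcl11a and Bcl11b on a log axis in each cluster of the layer II-IV-like, layer V-VI-like, interneuron-like and striatal inhibitory-like classes; points are embryos colored by genotype and short lines are means. For Bcl11b the KO embryos stand above WT in clusters 0, 1 and 11, the upper-layer-like ones, while the genotypes lie close together in the striatal clusters.

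Striatal inhibitory-like cells (6582 cells) held the highest Bcl11b, and this level was not called as changed. It measured 1714.5, 1585 and 1650.3 CPM in WT, 1814, 1651, 1687 and 1574 in Het and 1869, 1727 and 1814 in KO. Every KO embryo exceeded every WT embryo, but the log2 fold change was 0.13 ± 0.06 (adjusted p = 0.167, beside 14.1% of 11750 genes called in KO vs WT). It was 0.10 (adjusted p = 0.523) in KO vs Het, where 0.579% were called, and 0.03 (adjusted p = 0.842) in Het vs WT, where 1.39% were called. The 1660 genes called in KO vs WT were 859 without KO 2 and 1009 without WT 3, while the 163 in Het vs WT ranged from 11 without WT 3 to 934 without Het 4 and the 68 in KO vs Het from 17 without KO 3 to 81. At 5000 UMIs, 96.2%, 94.8% and 96.4% of the cells held Bcl11b (adjusted p = 0.234, exact permutation test), with 8.65, 8.72 and 9.20 UMIs per positive cell. In a class where nearly every cell is positive, the share has little room to rise, and the UMIs per positive cell carry the comparison.

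Bcl11a in the striatal inhibitory-like class was at 831, 833 and 834 CPM in WT, 926, 827.5, 996.5 and 836 in Het and 1027, 977 and 1029 in KO. Het 2 lay below the WT range and Het 3 above 1 KO embryo, so Het was spread between the other groups. KO exceeded WT by a log2 fold change of 0.28 ± 0.07 (adjusted p = 0.00998), which was 0.15 (adjusted p = 0.685) with the prefix as a covariate and 0.23 (adjusted p = 0.0611) in cells with at most 5% mitochondrial UMIs. The 2 clusters of the class, cluster 4 (Six3, Pbx3, Tshz1) and cluster 9 (Ebf1, Isl1, Zfp503), gave 0.24 (adjusted p = 0.0290, below the fold limit, beside 11.6% called) and 0.34 ± 0.08 (adjusted p = 0.0145, beside 7.52% called) for Bcl11a. For Bcl11b they gave 0.13 (adjusted p = 0.331) and 0.12 (adjusted p = 0.311). Of 13 layer V-VI markers tested in these cells 7 fell, with sums of 701 to 840 CPM in WT and 504 to 559 in KO, and of 17 interneuron markers 5 rose and 3 fell. Progenitor markers were higher in KO in sums that did not overlap with WT. Those of radial glia, of which 4 of 8 rose and 1 fell, were at 657 to 700 CPM in WT and 771 to 852 in KO. Those of the ganglionic eminence, of which 2 of 7 rose, were at 209 to 226 and 259 to 336 CPM, and those of the subventricular zone, of which 3 of 5 rose, at 81.6 to 87.8 and 117 to 138 CPM. Over all genes 14.1% were called, and the part of these markers was not tested.

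Among progenitor-like classes, both genes rose in the subventricular zone-like class and neither was called in the others. Bcl11a measured 459.9, 356 and 374 CPM in WT, 424, 388, 519 and 449 in Het and 577, 556 and 563 in KO. Bcl11b measured 110.0, 99.3 and 94.0 CPM in WT, 100.5, 84.7, 112 and 99.8 in Het and 152, 182 and 167 in KO. For both genes KO lay above WT and Het, which overlapped. The KO vs WT folds were 0.51 ± 0.10 for Bcl11a (adjusted p = 0.00153) and 0.72 ± 0.10 for Bcl11b (adjusted p = 8.26e-05), where 23.8% of 12273 genes were called, and KO vs Het gave 0.35 (adjusted p = 0.0296) and 0.75 (adjusted p = 0.000201), beside 7.45% called. In Het vs WT, where 2.14% were called, they were 0.17 (adjusted p = 0.351) and -0.03 (adjusted p = 0.911). Without integration of the embryos the change of Bcl11a in KO vs WT was 0.25 (adjusted p = 0.0396), just under the fold limit, and 0.18 (adjusted p = 0.259) in KO vs Het. The share with Bcl11b at 5000 UMIs was 29.9%, 29.1% and 40.6% (adjusted p = 0.0460, exact permutation test).

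In cluster 7 of this class, led by Eomes and Neurog2 of intermediate progenitors, the log2 difference of KO from WT was 0.86 ± 0.13 for Bcl11b (adjusted p = 0.000230) and 0.33 ± 0.08 for Bcl11a (adjusted p = 0.0119). In cluster 20, led by Tesc and Tac2, it was 0.38 (adjusted p = 0.244) and 0.43 (adjusted p = 0.0938). Cluster 20 made up 19.4% to 33.8% of the class in WT and 7.57% to 9.72% in KO. Of 16 interneuron markers tested in the class 1 rose and 10 fell, and their sums were 467 to 766 CPM in WT and 451 to 511 in KO. Of 12 radial glia markers 4 rose and 2 fell, with sums of 1323 to 1616 CPM in WT and 1737 to 2210 in KO. Of 5 ganglionic eminence markers tested 2 rose and 1 fell, with sums of 235 to 256 and 318 to 347 CPM. Of 14 layer V-VI markers 1 rose and 7 fell, with sums of 813 to 912 and 781 to 901 CPM. These counts stand beside 23.8% of all genes called, and the part of these markers in the rise of both genes was not tested.

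In ganglionic eminence-like cells Bcl11b was at 268, 268.5 and 256 CPM in WT and 309.8, 290.5 and 319 in KO, a fold of 0.21 (adjusted p = 0.0611), and Bcl11a differed by 0.20 (adjusted p = 0.0907). Every KO embryo was above every WT embryo for Bcl11b, and the percentages called were 8.53% in KO vs WT and 0.454% in Het vs WT. Radial glia-like cells were low in both genes, with Bcl11b at 37.3, 57.9 and 69.0 CPM in WT, 22.4, 43.0, 28.7 and 57.2 in Het and 52.4, 46.1 and 57.1 in KO. All 3 groups overlapped (KO vs WT -0.09, adjusted p = 0.840, beside 19.4% called; Het vs WT -0.54, adjusted p = 0.238, beside 1.29% called), and Bcl11a differed by 0.25 in KO vs WT (adjusted p = 0.243). Without Het 4, Bcl11b in radial glia-like cells was lower in Het vs WT by a log2 fold change of -0.86 (adjusted p = 0.0183), and without marked doublets Bcl11a was higher in KO vs WT by 0.74 (adjusted p = 0.000362). This cluster also held markers of oligodendrocyte precursors, which scored above those of radial glia (mean scores 3.57 and 3.40), and its name rests on the radial glia markers among its top genes. Of 6 oligodendrocyte precursor markers tested 5 fell in KO vs WT, and their sum was at 559 to 716 CPM in WT, between 297 and 787 in Het and between 278 and 307 in KO. Their part in these values was not tested. At 5000 UMIs, 14.9%, 10.2% and 12.8% of radial glia-like cells held Bcl11b, against 11.5%, 6.40% and 6.24% of erythroid-like cells, which leaves little above background.

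In the layer I-like class (811 cells), which holds Cajal-Retzius neurons by its markers, Bcl11b measured 90.0, 86.9 and 68.0 CPM in WT, 105, 99.2, 65.0 and 104 in Het and 91.0, 154 and 146 in KO. KO 1 lay with the WT and Het embryos and the other KO embryos above all of them. The KO vs WT folds were 0.67 ± 0.17 for Bcl11b (adjusted p = 0.0237) and 0.33 ± 0.09 for Bcl11a (adjusted p = 0.0352), beside 5.47% called, and 0.171% of genes were called in Het vs WT. Neither call held without KO 3 (0.56, adjusted p = 0.125 for Bcl11b, and 0.24, adjusted p = 0.204 for Bcl11a), that of Bcl11b not without KO 2 or WT 3, and that of Bcl11a not without WT 2 or WT 3. Without marked doublets Bcl11b was 1.40 higher on the log2 scale (adjusted p = 0.000198). Of 14 layer V-VI markers 2 rose and 1 fell in KO vs WT, with sums of 1859 to 2217 CPM in WT and 2281 to 2540 in KO. Of 5 subventricular zone markers tested 2 rose, at 60.5 to 83.8 and 149 to 166 CPM. Of 8 radial glia markers tested 1 rose, at 175 to 235 and 241 to 275 CPM. These counts stand beside 5.47% of all genes called, and the part of these markers was not tested. The unnamed clusters 5 (Fam19a1, Tfap2d, Thsd7a) and 6 (Crym, Grp, Nr4a3), both excitatory neurons by their leading genes, rose in both genes. In cluster 5 the folds were 0.28 for Bcl11a (adjusted p = 0.0422) and 0.46 ± 0.08 for Bcl11b (adjusted p = 0.00323), beside 7.76% called. In cluster 6 they were 0.44 and 0.43 ± 0.07 (adjusted p = 0.000648 each), beside 17.9% called.

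Since a change in 1 class and none in another does not show that the classes differ, the differences were tested directly, by the within-embryo difference of log2 levels between 2 classes and an exact permutation of embryos over the genotypes. Pairs were chosen after the values were seen, and p-values were adjusted over 12 tests. The tests compare changes on the log2 scale, and the order of changes in CPM can differ. Each p is for a difference among the 3 genotypes, and KO against WT alone, with 3 embryos each, cannot go below 0.1. For Bcl11b the change in KO vs WT was larger in layer II-IV-like cells than in layer V-VI-like cells by 1.36 log2 units (adjusted p over the 3 genotypes = 0.00381). It was larger than in interneuron-like cells by 1.35 (adjusted p = 0.00490) and than in striatal inhibitory-like cells by 1.71 (adjusted p = 0.00190). The changes in layer V-VI-like and interneuron-like cells could not be told apart (-0.02, adjusted p = 0.987). For Bcl11a the change was larger in layer V-VI-like cells than in layer II-IV-like cells by 0.70 log2 units (a difference of -0.70 as coded, adjusted p = 0.00286). It was larger than in interneuron-like cells by 0.91 and than in striatal inhibitory-like cells by 0.62 (adjusted p = 0.00190 each), while the other pairs did not pass, at 0.21, -0.08 and -0.29.

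Among layer II-IV-like cells, most of which held Bcl11a in every genotype, cells that held both transcripts became more frequent. At 5000 UMIs both transcripts were expected in 20.8%, 28.6% and 57.4% of layer II-IV-like cells in WT, Het and KO (exact permutation test, p = 0.000476, adjusted p = 0.00952). With the same shares of each gene and no association, 23.0%, 30.6% and 58.1% would hold both. In WT, Bcl11b was expected in 23.6% of cells with Bcl11a and in 44.0% of cells without it, a negative association, with most Bcl11b-positive cells also holding Bcl11a. In KO these shares were 64.1% and 71.1%. The odds ratio of co-detection, given as a description, was 0.396 in WT, 0.491 in Het and 0.732 in KO, and a value below 1 means that the transcripts occurred together less often than if independent. It was 0.429, 0.453 and 0.631 in cluster 0 and 0.235, 0.319 and 0.537 in cluster 1, so the order of the genotypes was the same within these clusters. The odds ratio in cluster 11, the smallest of the class, is not given here.

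In other classes the odds ratio was mostly above 1. It was 2.33, 2.00 and 3.97 in striatal inhibitory-like cells and 2.39, 2.45 and 2.49 in ganglionic eminence-like cells. In interneuron-like cells it was 1.70 in WT, 1.35 in Het and 1.19 in KO, and in subventricular zone-like cells 0.997, 1.16 and 1.78. The share of cells with both rose in layer V-VI-like cells, with 80.0%, 84.1% and 93.5% in WT, Het and KO (p = 0.00190, exact permutation test). In subventricular zone-like cells it was 22.4%, 23.0% and 35.5% (adjusted p = 0.0460). In interneuron-like cells it was 57.8%, 56.2% and 59.0% (p = 0.618, exact permutation test), and in striatal inhibitory-like cells 88.2%, 88.1% and 92.4% (adjusted p = 0.113). A share with both rises with the share of either gene, so these tests do not measure association. In layer V-VI-like cells of WT, Het and KO the single shares were 87.0%, 90.4% and 96.7% for Bcl11a and 91.7%, 93.0% and 96.6% for Bcl11b.

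**Figure D5:**
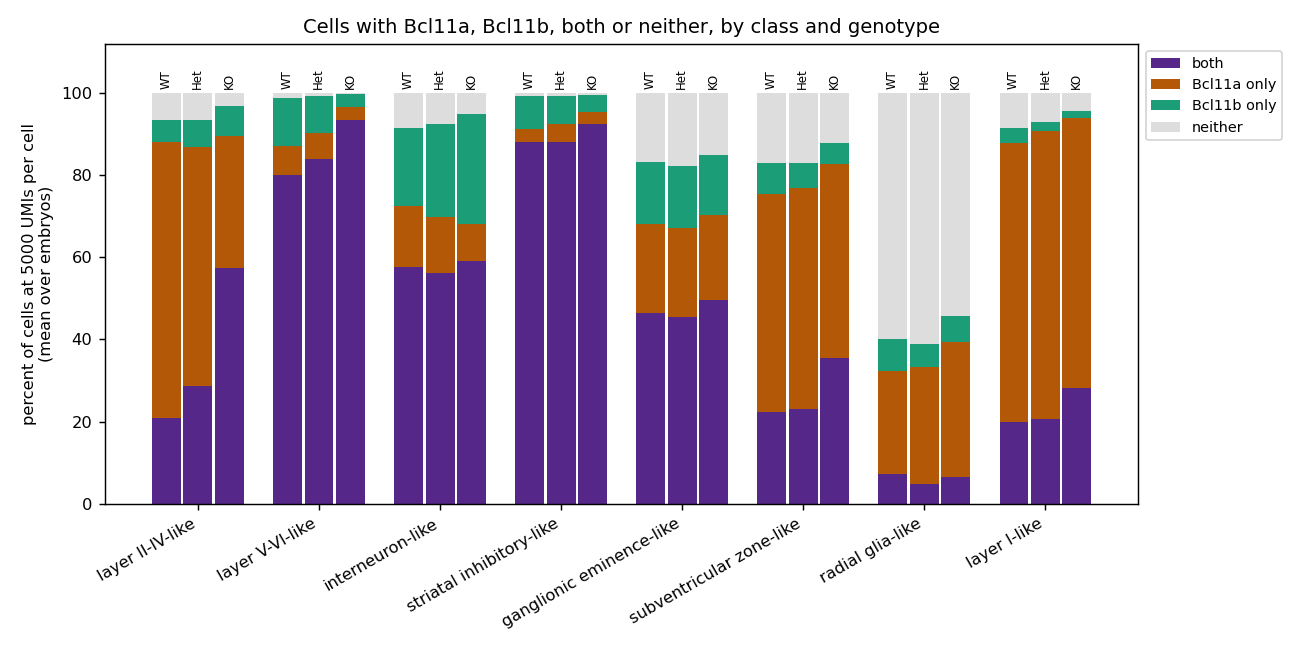
Percent of cells expected to hold both transcripts, Bcl11a only, Bcl11b only or neither at 5000 UMIs in 8 classes, as stacked bars that start at 0 and give the mean over the embryos of each genotype. In layer II-IV-like cells the share with both grows from 20.8% in WT to 57.4% in KO at the cost of cells with Bcl11a only.

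The genes around this pair were read by list. Of 10 cortical regulators known to act on Bcl11b, 6 rose and 2 fell in layer II-IV-like cells in KO vs WT (median log2 fold change 0.30, against 0.00 over all genes), beside the 29.6% called in that class. Fezf2, which specifies subcerebral neurons, rose by 1.69 on the log2 scale (adjusted p = 1.11e-05), from 31.7 ± 3.28 CPM in WT over 49.1 in Het to 102 ± 11.1 in KO. Sox5, a regulator of deep-layer neurons, rose by 1.57 (adjusted p = 5.66e-07). Lmo4, a LIM-only factor, fell by 1.10 (adjusted p = 8.04e-06), from 391 to 182 CPM. Tbr1, a layer VI factor, rose by 0.62 (adjusted p = 3.20e-05). The part of these factors in the level of Bcl11b was not tested.

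In layer V-VI-like cells 6 of the 10 rose and 1 fell (median 0.28), beside the 26% of all genes called. Fezf2 rose by 0.91 (adjusted p = 1.02e-09), from 322 ± 2.65 to 606 ± 10.5 CPM, and Lmo4 fell by 1.25 (adjusted p = 4.06e-09), from 199 to 83.3 CPM. In interneuron-like and in striatal inhibitory-like cells 1 of the 10 rose each, Nr2f1 and Ldb1, which is near the 8.71% and 14.1% of all genes called and is no result about the list.

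Genes of corticospinal neurons, many of which are known to depend on Bcl11b, moved in both directions. Of 12 such genes, 7 rose and 2 fell in layer II-IV-like cells (median 0.29), but in layer V-VI-like cells 2 rose and 6 fell (median -0.44), beside 29.6% and 26% of all genes called. Etv1, a layer V transcription factor, went from 70.3 ± 7.70 CPM in WT to 6.09 ± 1.82 in KO in layer V-VI-like cells (log2 fold change -3.58, adjusted p = 7.62e-09). Crym, a marker of subcerebral neurons, went from 129 to 51.2 CPM (-1.33, adjusted p = 6.25e-08), and Cntn6, a contactin, from 12.7 to 0.144 CPM. Cdh13, a cadherin, rose in layer II-IV-like cells from 58.5 to 103 CPM, as did Pcp4, a calmodulin-binding peptide, from 46.8 to 76.9 CPM. In striatal inhibitory-like cells 2 of 10 tested rose and 4 fell, beside 14.1% of all genes called, and in interneuron-like cells 1 of 12 rose and 2 fell, beside 8.71%.

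Of 20 genes of striatal projection neurons tested in striatal inhibitory-like cells, 3 rose and 6 fell (median -0.15, beside 14.1% called). Penk, the enkephalin precursor of indirect-pathway neurons, fell by 0.93 (adjusted p = 0.0102), from 46.4 to 24.8 CPM. Ppp1r1b, which encodes the phosphoprotein DARPP-32, fell by 2.40 (adjusted p = 0.000907) but from only 5.51 to 1.07 CPM. Of 16 tested in layer II-IV-like cells 1 rose and 6 fell, beside 29.6% of all genes called, among the latter Isl1 and Six3. In layer V-VI-like cells 2 of 16 rose and 2 fell, a share of 25% beside the 26% of all genes called, which is no result about the list.

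Of the cortical genes linked to Bcl11a, 4 of 6 tested rose and 1 fell in layer II-IV-like cells (median 0.39), and 3 of 7 rose and 1 fell in layer V-VI-like cells (median 0.37), beside 29.6% and 26% of all genes called. Sema3c, a guidance ligand whose gene Bcl11a is known to repress in migrating upper-layer neurons, rose by 0.92 in layer II-IV-like cells, from 70.6 to 134 CPM, where Bcl11a was not called. In layer V-VI-like cells, where Bcl11a rose, Tbr1 rose by 0.48, Efnb2, an ephrin ligand, by 0.63 and Flrt3, an adhesion receptor, by 0.48, whereas Unc5d, a netrin and FLRT receptor, fell by 1.16.

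Partners of the 2 proteins were also read. Of 15 NuRD subunits, a list that holds Gatad2b itself, 5 rose and 2 fell in layer II-IV-like cells and 4 rose and 2 fell in layer V-VI-like cells (medians 0.09 and 0.08), beside 29.6% and 26% of all genes called, with Gatad2b one of those that fell. Cdk2ap1, a small NuRD subunit, rose in layer II-IV-like cells by 1.08 (adjusted p = 2.85e-05), from 90.1 to 191 CPM. Hdac1, a NuRD deacetylase, rose there from 28.3 to 42.1 CPM. Of 22 BAF subunits 5 rose and 2 fell in layer II-IV-like cells and 3 rose and 2 fell in layer V-VI-like cells (medians 0.02 and 0.00), shares near those over all genes. Dpf3, a subunit that reads histone marks, rose in layer V-VI-like cells by 2.08 (adjusted p = 3.07e-11), from 9.47 to 40.4 CPM. Of 7 other C2H2 factors tested that carry an N-terminal NuRD-binding motif, 4 rose and 2 fell in layer II-IV-like cells, beside 29.6% of all genes called, among them Sall2, which fell by 1.45 (adjusted p = 2.54e-08) from 16.6 to 6.07 CPM. In layer V-VI-like cells 1 of 4 tested rose, beside 26% of all genes called, and in interneuron-like and striatal inhibitory-like cells 0 of 6 were called by edgeR in each, beside 8.71% and 14.1%, so in these 3 classes the counts are no result about the list. Zfpm2 and Tbr1 each stand in 2 of these lists. Several list members were also markers that named the classes. Fezf2, Tbr1, Zfpm2, Crym, Ldb2, Pcp4 and Etv1 were layer V-VI markers. Unc5d was a layer II-IV marker, and Isl1, Six3 and Penk were among the striatal markers. The counts by list and the marker counts given above are therefore not separate.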

How the data were processed

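Cortex of 10 embryos at E16.5 was measured, 1 library per embryo. For each embryo the authors deposited raw counts, the number of UMIs of a gene in a barcode, with no scaling. The submitters' processing notes name Cell Ranger 6.0.2 and mm10. All values were whole, as checked in each file.

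The filters of the study, a minimum of 1000 UMIs and no more than 10% of them mitochondrial, left 65779 of 80071 barcodes. Doublets were scored by the Scrublet method in scanpy 1.11.5. By its own threshold 0.0341% to 2.53% of cells were doublets, so the top-scoring 4.80% to 8.31%, set from the number of barcodes, were marked instead, and they were removed only in an alternative. Seurat 5.3.0 in R 4.3.3 clustered the cells (2000 variable genes without Bcl11a, Bcl11b and Gatad2b, integration of embryos, 30 components, resolution 0.4), and markers gave the clusters their names. Numbers of clusters belong to this clustering alone, and names rebuilt this way can differ from the study's. Endothelial-like cells, with 11 in the smallest embryo, were not tested.

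UMIs were summed per embryo and class. The 10 embryos entered 1 edgeR fit per class (edgeR 4.0.16, limma 3.58.1; filterByExpr, TMM, quasi-likelihood F-test, Benjamini-Hochberg adjustment over all genes of a fit), which gave every adjusted p-value and fold change of a gene unless DESeq2 1.42.0 is named. A standard error is the absolute log2 fold change divided by the square root of F. CPM are counts per 1000000 UMIs of an embryo's cells in the class; the class order used CPM without TMM. Embryos are separate animals. The study describes the Het and WT embryos as littermates, and which embryos shared a litter is not given in the labels.

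For shares, the expected share of cells with a UMI in a draw of 5000 UMIs was computed exactly for each cell by the hypergeometric distribution, and cells under 5000 UMIs were left out. Genotypes were compared by two-sided exact permutation tests over all 4200 assignments of embryos (smallest p 0.000476), or over the splits of 3 against 4 (smallest p 0.0286); 3 against 3 cannot go below 0.1. The p-values over the 3 genotypes were adjusted over 8 classes and 5 measures, 40 tests. Python 3.11.15, numpy 2.4.6, scipy 1.17.1, pandas 2.3.3 and matplotlib 3.10.9 were used.

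The members and the gene lists were chosen with earlier results of these data known. Besides the members, the text names the 5 genes most similar to each across clusters (mean of at least 20 CPM) and, for each list and class, up to 4 members with the largest called change; leading genes name clusters. The lists were cortical regulators of Bcl11b, corticospinal neuron genes, striatal projection neuron genes, cortical genes linked to Bcl11a, NuRD subunits, BAF subunits, and other C2H2 factors with the motif. Promoters are from RefSeq, and both genes matched.

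The fits were tested on simulated counts with known changes: for KO vs WT in layer II-IV-like cells (14500 genes), 66.7% of genes changed by 0.5 and 81.7% changed by 1 on the log2 scale were called. For Het vs WT, 24.0% of genes changed by 0.25 were called in that class, 27.4% in layer V-VI-like cells (13012 genes), 10.5% in interneuron-like cells (13025), 8.74% in striatal inhibitory-like cells (11750) and 5.61% over all cells (17647). A true change of 0.25 equals the fold limit, so many such genes miss the call at any power. Of genes changed by 0.5, 58.7% were called in Het vs WT in layer II-IV-like cells. The simulation also changed fewer genes than were called in KO vs WT. Small Het differences may have been missed, but these values do not give how many. Alternatives covered normalization, tests, filters on genes and cells, doublets, the replicate number, the library prefix, integration, resolution, depth and each embryo left out.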

Additional observations from a re-analysis of the deposited data

Results flagged for a closer look

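The effect of genotype differed between classes in 8 of 12 pairs of classes tested, each by an exact permutation test of the within-embryo log2 difference over the 3 genotypes (adjusted p at or below 0.00929). As KO minus WT of the difference between classes, Bcl11a gave -0.70 for layer II-IV-like minus layer V-VI-like cells, 0.91 for layer V-VI-like minus interneuron-like cells and 0.62 for layer V-VI-like minus striatal inhibitory-like cells. Bcl11b gave 1.36 for layer II-IV-like minus layer V-VI-like cells, 1.35 for layer II-IV-like minus interneuron-like cells and 1.71 for layer II-IV-like minus striatal inhibitory-like cells. It also gave 0.34 for layer V-VI-like minus striatal inhibitory-like cells and 0.36 for interneuron-like minus striatal inhibitory-like cells. For Bcl11b the within-embryo difference between layer II-IV-like and layer V-VI-like cells averaged -3.11 in WT, -2.67 in Het and -1.74 in KO.

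Among 63 groups of 4 Het embryos that were looked at, 4 held an embryo far from the other 3, where chance gives about 1 in 20. The share of all cells with Bcl11a was 76.3% in Het 2 and 79.9% to 80.0% in the others. Bcl11b in layer V-VI-like cells was 830.0 CPM in Het 2 and 895 to 900.2 CPM in the others. Bcl11b-positive subventricular zone-like cells held 1.78 UMIs in Het 3 and 1.61 to 1.62 in the others. Bcl11b in layer I-like cells was 65.0 CPM in Het 3 and 99.2 to 105 CPM in the others.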

How the results depend on the processing

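For the layer II-IV-like, layer V-VI-like, interneuron-like and striatal inhibitory-like classes, 521 of the fold changes recomputed under the alternatives kept their direction and side of the call, 13 lost the call and 4 gained it. Of the shares 195 kept it, 8 lost it and 10 gained it, and of the UMIs per positive cell 126, 11 and 5, both judged by the unadjusted exact p over the genotypes. None was reversed with a call. The Het vs WT folds within 1 prefix are among these counts, although Het 4 is the only Het embryo in them. In the other classes and over all cells, 33 fold changes lost and 22 gained the call. The cause was not tested for any of these.

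The fold of Bcl11b in layer II-IV-like cells in KO vs WT stayed called under every alternative run, the library prefix as a covariate included, as did that of Bcl11a in layer V-VI-like cells, at 0.89 with the prefix. The call of Bcl11a in Het vs WT in layer V-VI-like cells was lost with the prefix as a covariate (0.26, adjusted p = 0.177), without integration (0.25), at resolution 0.8 (0.22) and within 1 prefix (0.26), and the fold was 0.23 to 0.31 with each embryo left out. Bcl11a in KO vs WT in striatal inhibitory-like cells was 0.23 at no more than 5% mitochondrial UMIs, 0.15 with the prefix and 0.22 without integration. Bcl11b in Het vs WT in layer II-IV-like cells was 0.78 within 1 prefix (not called), and in KO vs WT in interneuron-like cells 0.34 with the prefix (not called). In KO vs Het in interneuron-like cells it was called by DESeq2 (0.34), without the filter on low counts (0.33), without integration (0.35) and without WT 1, and ranged from 0.30 to 0.39 with each embryo left out. A comparison of KO with WT within 1 prefix could not be computed.

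As KO minus WT in percentage points, the share with Bcl11a in layer V-VI-like cells no longer passed at resolution 0.8 (6.40), and that in interneuron-like cells passed without integration (-6.07). The share of interneuron-like cells with Bcl11b did not pass at 10000 UMIs (6.26) nor without KO 2 or KO 3 (7.38 to 11.7 over all embryos left out), and the share with both passed without thinning (6.01). In layer II-IV-like cells the share with Bcl11a passed without WT 2 (range -0.307 to 2.40). In striatal inhibitory-like cells the share with Bcl11a did not pass at 10000 UMIs (1.85), at no more than 5% mitochondrial UMIs (2.89) or without KO 1 or KO 3 (3.73 to 4.82), and that with Bcl11b passed without thinning (1.53). The share with both passed without thinning (7.11), at 5% mitochondrial UMIs (3.15), at resolution 0.8 (4.43), with clusters at equal weight (5.14) and without Het 1 or Het 2 (3.39 to 5.09). For UMIs per positive cell, Bcl11a in layer II-IV-like cells passed without thinning (3.86). Bcl11b there did not pass at 2500 UMIs (0.238), at 5% mitochondrial UMIs (0.612) or without any embryo but WT 2 (0.489 to 0.787). In striatal inhibitory-like cells Bcl11a passed at 10000 UMIs (1.56) and without Het 3 (0.449 to 0.644), and Bcl11b at resolution 0.8 (1.02) and without KO 2 (0.327 to 0.797). In WT, 7 class ranks moved when shares replaced CPM.

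With the prefix as a covariate, calls in KO vs WT fell from 4287 to 2228 in layer II-IV-like cells, from 3387 to 1614 in layer V-VI-like cells, from 1135 to 27 in interneuron-like cells and from 1660 to 101 in striatal inhibitory-like cells. Same-numbered embryos did not deviate together (correlations from -0.299 to 0.120), so the numbers were taken only as names. With the replicate number as a block, Bcl11b in layer II-IV-like cells in KO vs WT was 1.83 (adjusted p = 1.74e-08), no call named above changed, and calls over all cells in Het vs WT went from 525 to 1850. Het 4 is the only embryo with its number, so the block also takes it out of the comparison, and leaving out Het 4 without a block gave 1829. In interneuron-like cells in Het vs WT the block gave 588 calls and leaving out Het 4 gave 336, against 0. The median UMIs per cell limit the shares, and a cell without a UMI may still express the gene.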
